A study of Mus musculus with 7 samples.

Results

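GABA-A receptors and glutamate receptors were followed as a family of 45 genes in a table of 54309 genes from mouse dorsal root ganglia. The genes were taken by symbol. They comprised 19 GABA-A subunits (the alpha, beta, gamma, delta, epsilon, pi, theta and rho genes) and 26 glutamate receptor genes, of which 4 encode AMPA, 5 kainate, 7 NMDA, 2 delta and 8 metabotropic receptors. All 45 were present in the table, and 23 averaged 1 TPM or more across the 7 samples. TPM, a share of all transcripts scaled to a fixed total, is corrected for transcript length, so levels can be compared between genes. The animals were male C57bl/6 mice of 6 to 8 weeks by their labels, with no transgene named. Each mouse received a sciatic nerve injury at Zeitgeber time 20 or 8 (ZT, counted in hours from lights on). The lumbar ganglia L4 to L6 were taken 72 h later, hence at the clock time of the injury, so effects of the time of injury and of the time of collection cannot be told apart. Enzymes dissociated the ganglia, and a gradient of albumin enriched the neurons before RNA sequencing. There were 4 samples at ZT20 and 3 at ZT8, and no uninjured samples were analysed here. The question was how transcripts of injured sensory ganglia differ between these times. The labels do not say whether each sample came from its own animal, so p-values measure the spread between these samples only.

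GABA-A receptors are pentameric chloride channels, most often made of alpha, beta and gamma subunits. In sensory neurons, which load chloride through the cotransporter Slc12a2, their opening depolarises the cell, and receptors on the central endings carry presynaptic inhibition. AMPA, kainate and NMDA receptors are glutamate-gated cation channels, whereas metabotropic receptors couple to G proteins. Dorsal root ganglion neurons release glutamate, and on these neurons kainate receptors that contain the Grik1 product are best known from small-diameter cells.

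Some libraries stood apart, and this touches the receptor results. Library identifiers follow one naming scheme at ZT20 and another at ZT8, so any preparation batch and the group cannot be told apart. The Y-linked genes Ddx3y, Eif2s3y and Uty were listed at 0 in ZT20 replicates 3 and 4 although all animals are labelled male, and Kdm5d, also Y-linked, was at 0.0162 and 0.00868 TPM there, against 0.921 to 5.63 TPM in the other samples. Xist, transcribed from the inactive X chromosome, was at 2.21 and 2.30 TPM in these 2 libraries and at 1.08 TPM in ZT20 replicate 2, which also held Y-linked transcripts. It did not exceed 0.00467 TPM in the other 4. ZT8 replicate 2 had 18297 genes above 0 TPM, against 22541 to 25238 in the others, and 28 of the 45 receptor genes above 0, against 34 to 40. It was the lowest of all samples for 16 of the 23 receptor genes above 1 TPM. All 8 neuron markers were above 1 TPM, and their summed level was 17046 to 22002 TPM at ZT20 and 13489 to 20394 TPM at ZT8. All 7 satellite glia markers were detected, with sums of 7491 to 9157 TPM at ZT20 and 12776 to 15475 TPM at ZT8, so the ranges did not overlap. Apoe made up most of that sum, at 6261 to 7615 TPM and 10623 to 13557 TPM. Apoe, Fabp7 and Slc1a3 were lower at ZT20 without overlap, while Glul, Kcnj10 and Cdh19 overlapped. Cdh19 was at 20.7 to 34.8 TPM at ZT20 and 15.3 to 26.7 TPM at ZT8. The 6 Schwann cell markers summed to 1121 to 1254 TPM at ZT20 and 903 to 1296 TPM at ZT8, and of 5 endothelial markers Pecam1, Cdh5, Kdr and Flt1 had means below 1 TPM. The 5 plasma cell markers summed to 267 to 486 TPM at ZT20 and 496 to 935 TPM at ZT8, again without overlap. Of these, Jchain and Mzb1 were lower at ZT20 without overlap, while Xbp1, Sdc1 and Derl3 overlapped. The 5 erythroid markers summed to 9534 TPM in ZT8 replicate 2, to 951 and 1603 TPM in the other ZT8 samples, and to 2369 to 6679 TPM at ZT20. The part of cell composition in the receptor differences was not tested beyond the covariate fit given with the results. In such bulk samples fewer cells of a type and less RNA per cell cannot be told apart.

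At ZT20, 6 of the 23 receptor genes with sufficient signal were higher than at ZT8 and 0 were lower (limma on log2(TPM + 1), Benjamini-Hochberg adjusted p under 0.05 over 14800 genes). Among the 6 were the GABA-A subunits Gabra2 and Gabrb2, the AMPA subunit Gria4 and the kainate subunit Grik4. They make up 26.1% of the 23, whereas 16.4% of all tested genes were called (12.8% higher, 3.61% lower). In 12 of the 23 (52.2%) every ZT20 value exceeded every ZT8 value, as in 24.5% of all tested genes. The reverse held for 0 of the 23 and 8.72% of all, so that 33.2% of all tested genes had separate groups. Before adjustment, 13 of the 23 had a p under 0.05, as did 34.6% of all tested genes. The median log2 difference was 0.75 for the 23 genes and 0.23 for all tested genes. That median of all genes shrank to 0.033 under median-ratio scaling, where the receptor genes had a median of 0.54, and to 0.0046 under quantile normalization, where they had 0.41. After a correction that takes out, within each sample, the dependence of the values on transcript length and GC content, the median was 0.18 for the receptor genes and −0.0024 for all genes, and after a correction for length alone 0.16 and 0.0020. Gabra2 also passed when any single sample was left out. Without ZT20 replicate 3 or 4, 2 genes passed, where 4.2% and 4.88% of all genes were higher. Without ZT20 replicate 1 or ZT8 replicate 3, 3 passed, beside 6.45% and 8.72% of all genes. Without ZT8 replicate 2, 8 passed, beside 16% of all genes. A gene that passed the 1 TPM filter through its ZT20 samples alone had to be higher there. This applies to Grin3a, whose ZT8 mean was 0.913 TPM.

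**Figure D1:**
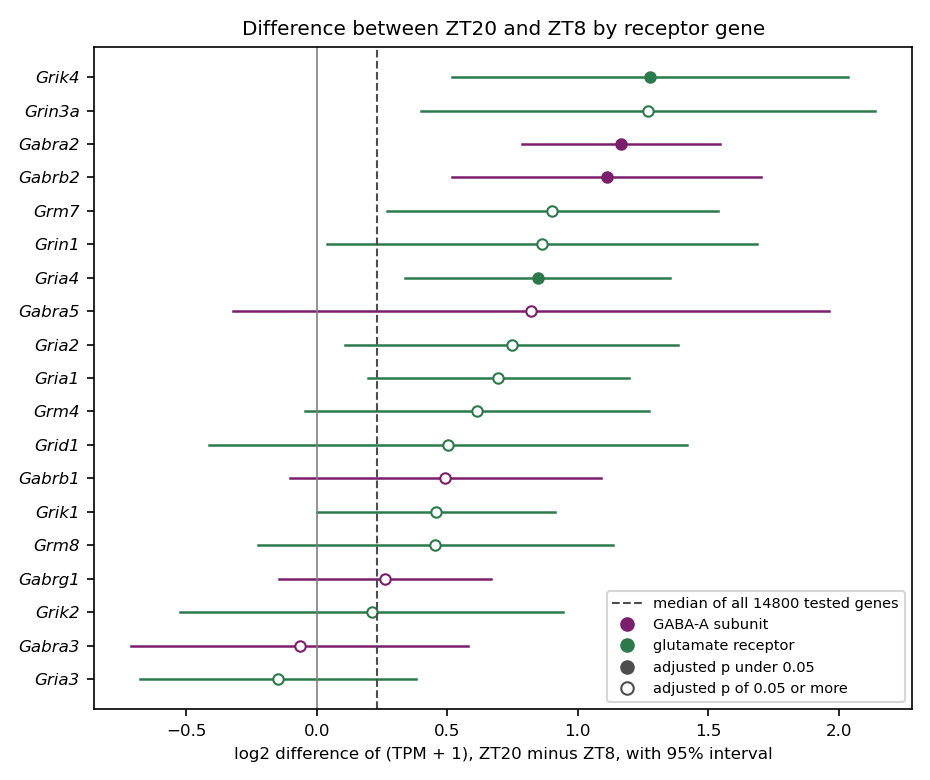
Each row is one of 19 receptor genes, the horizontal axis is the log2 difference of (TPM + 1), ZT20 (n = 4) minus ZT8 (n = 3), the dot is limma's estimate and the line its 95% interval. Filled dots (4 genes) have an adjusted p under 0.05, and 17 of the 19 dots lie right of 0, most of them right of the dashed median of all genes.

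Among the alpha subunits, which form the GABA binding site together with beta subunits, Gabra2 rose. Gabra2 (ENSMUSG00000000560) had values of 18.5, 20.6, 19.3 and 22.9 TPM for ZT20 replicates 1 to 4, and of 9.07, 7.20 and 9.36 TPM for ZT8 replicates 1 to 3, the order used throughout. The groups were well separated, and the mean was 2.38-fold higher at ZT20 (20.3 ± 1.90 TPM, SD, n = 4, against 8.54 ± 1.17 TPM, SD, n = 3). Its log2 difference was 1.16 with a standard error of 0.17 (adjusted p = 0.00583 by limma).

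Gabra5 and Gabra3 did not pass the test. Gabra5, whose product forms receptors that mostly lie outside synapses, was at 16.1, 19.6, 23.3 and 22.2 TPM at ZT20 and at 17.0, 3.33 and 21.0 TPM at ZT8. The ZT8 value of 3.33 TPM belonged to replicate 2, and the other ZT8 samples lay within the ZT20 range. The log2 difference was 0.82 (95% interval −0.32 to 1.96, limma adjusted p = 0.275), and it was 0.087 without ZT8 replicate 2 and 1.26 without ZT8 replicate 3. Gabra3 was at 6.07, 5.89, 5.38 and 3.97 TPM at ZT20 and at 7.44, 6.76 and 3.31 TPM at ZT8, with overlapping groups and a log2 difference of −0.065 (95% interval −0.71 to 0.58). Gabra4 fell just below the filter with a mean of 0.923 TPM, and its values were 0.520 to 0.962 TPM at ZT20 and 0.807 to 1.57 TPM at ZT8. Gabra6, known from cerebellar granule cells, was listed at 0 in all 7 samples.

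Of the beta subunits, Gabrb2 (ENSMUSG00000007653) rose, from 2.07, 0.870 and 1.43 TPM at ZT8 to 3.30, 4.01, 5.08 and 4.58 TPM at ZT20. The groups did not overlap, and limma gave a log2 difference of 1.11 (standard error 0.26, adjusted p = 0.0250). The adjusted p was 0.0502 to 0.0905 when any 1 of the 4 ZT20 samples was left out, and 0.0562 without ZT8 replicate 3. Gabrb1 was low, at 1.74, 2.19, 1.74 and 3.33 TPM at ZT20 and at 1.46, 1.15 and 1.21 TPM at ZT8. Its groups did not overlap, and the log2 difference of 0.49 did not pass (95% interval −0.10 to 1.09, limma adjusted p = 0.214). Gabra4 overlaps Gabrb1 on the opposite strand in GENCODE M21, and whether the counting used strand is not given in the sources used here.

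The gamma subunits set benzodiazepine sensitivity and tie receptors to the synaptic scaffold. Gabrg1 was at 43.0, 49.8, 47.0 and 61.3 TPM at ZT20 and at 39.3, 51.3 and 35.1 TPM at ZT8. Here the groups overlapped, ZT8 replicate 2 reached the ZT20 range, and the log2 difference was 0.26 (95% interval −0.14 to 0.67, limma adjusted p = 0.321). It ranged from 0.15 to 0.41 when 1 sample was left out.

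Mouse GABA-A genes lie in clusters, and the values can be read along them (gene order from RefSeq, GRCm38.p6). On chromosome 5 Gabra2, which passed, adjoins Gabrg1, which did not, and Gabra4 adjoins Gabrb1, neither of them called. Gabrg3 was below the filter, at 0.0475 to 1.84 TPM where above 0. On chromosome X, Gabra3 (not called) adjoins Gabrq, which was above 0 in 1 sample only.

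Of the adjoining genes Gabra2 and Gabrg1 the first was called and the second was not, and the sequences before their annotated starts differ in composition. The 250 bases upstream are shown for both because the genes are neighbours on the same strand. Capitals mark the letters of motifs searched on both strands: the E-box CACGTG bound by the clock factors, the D-box TTANGTAA, the RORE half-site AGGTCA, the CRE TGACGTCA and the AP-1 site TGANTCA. The sequences are from RefSeq (GRCm38.p6), both on the minus strand.
Gabra2, chr5:71095850-71096099: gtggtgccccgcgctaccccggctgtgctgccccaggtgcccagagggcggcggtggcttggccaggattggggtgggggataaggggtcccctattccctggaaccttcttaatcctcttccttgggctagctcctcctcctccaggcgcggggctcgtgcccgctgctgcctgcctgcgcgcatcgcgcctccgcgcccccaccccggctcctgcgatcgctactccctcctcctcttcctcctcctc
Gabrg1, chr5:70842618-70842867: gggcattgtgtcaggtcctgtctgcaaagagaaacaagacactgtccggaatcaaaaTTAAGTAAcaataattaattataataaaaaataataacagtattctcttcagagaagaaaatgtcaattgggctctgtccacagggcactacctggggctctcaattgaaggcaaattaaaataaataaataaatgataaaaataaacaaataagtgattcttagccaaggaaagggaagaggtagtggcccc
The Gabra2 window was 70% G and C with 18 CpG dinucleotides, and the Gabrg1 window 35.6% with 1. Over all promoter windows of this length the medians were 52.4% and 6. Whether composition bears on the calls was not tested. The Gabrg1 window holds a D-box match, and 2.06% of 32851 promoter windows of this length hold one. The Gabra2 window holds none of the 5 motifs, which says only that these letters are absent from it.

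**Figure D2:**
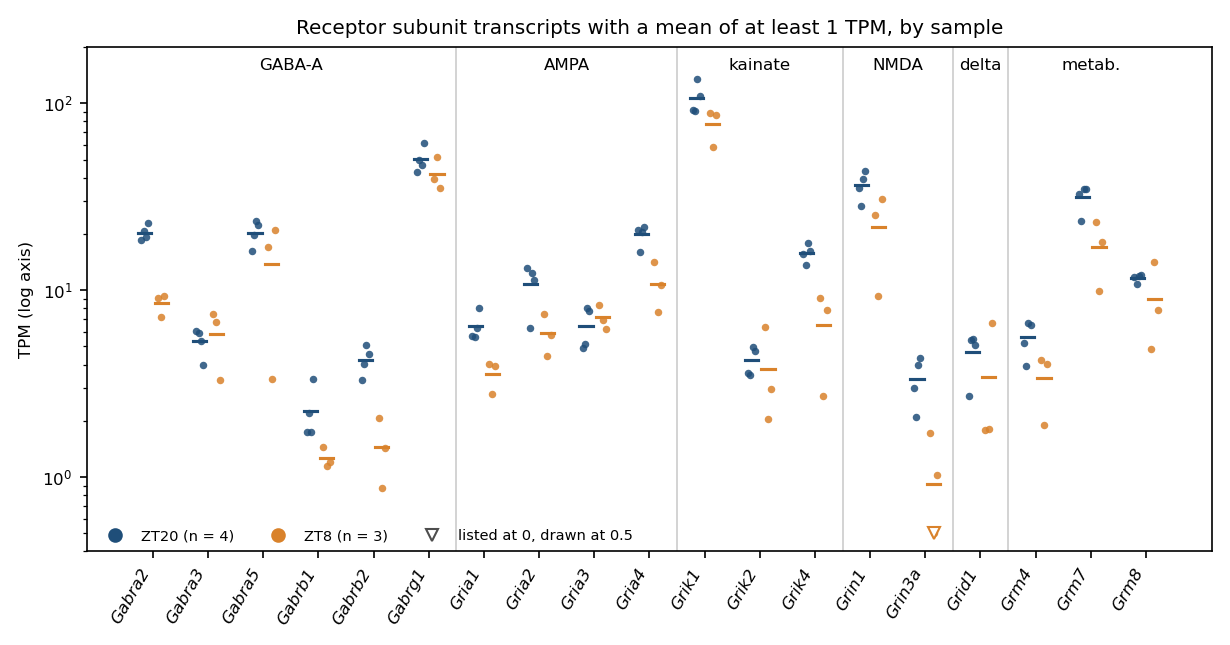
The TPM value of each sample is plotted on a log axis for 19 receptor genes, blue for ZT20 (n = 4) and orange for ZT8 (n = 3), with bars at the group means and open triangles for values listed at 0. Gabra2, Gabrb2, Gria4 and Grik4 show fully separated groups, whereas Gabra3, Gabrg1, Gria3 and Grik2 show groups that overlap.

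All 4 AMPA receptor subunits were detected, and only Gria4 passed the test. Gria4 (ENSMUSG00000025892) was at 21.1, 16.0, 20.6 and 21.8 TPM at ZT20 and at 14.2, 7.60 and 10.7 TPM at ZT8. The groups did not overlap, the mean was 1.83-fold higher at ZT20, and limma gave a log2 difference of 0.85 (standard error 0.22, adjusted p = 0.0356). The call was lost without ZT20 replicates 1, 3 or 4 (adjusted p = 0.0926, 0.103 and 0.104) and without ZT8 replicate 3 (0.0739). Gria1 was also separated, at 5.72, 5.61, 6.30 and 8.07 TPM against 4.02, 2.79 and 3.92 TPM, but its adjusted p of 0.0618 missed the threshold (log2 difference 0.70). Over all alternatives the Gria1 difference ranged from 0.073 to 0.83. Gria2, whose edited product makes AMPA receptors impermeable to calcium, was at 13.1, 6.30, 12.3 and 11.3 TPM at ZT20 and at 7.48, 4.45 and 5.77 TPM at ZT8. ZT20 replicate 2 fell within the ZT8 range, and the log2 difference of 0.75 did not pass (limma adjusted p = 0.0976), though Gria2 passed once that sample was left out.

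Gria3 stood apart within the AMPA family. It was at 4.93, 5.16, 8.00 and 7.72 TPM at ZT20 and at 8.31, 6.94 and 6.21 TPM at ZT8, with a log2 difference of −0.15 (95% interval −0.68 to 0.38, limma adjusted p = 0.680). That difference was −0.25 to −0.047 when 1 sample was left out, and −0.67 to −0.046 over all alternatives. As a share of AMPA transcripts within a sample, a measure that does not move with scaling between samples, Gria3 made up 11.0%, 15.6%, 17.0% and 15.8% at ZT20. At ZT8 it made up 24.5%, 31.8% and 23.3%, and the groups did not overlap. Gria4 was the largest share in every sample, with 43.6% to 48.4% at ZT20 and 34.9% to 41.7% at ZT8. Shares of Gria1 (11.8% to 16.9%) and Gria2 (19.0% to 29.3%) overlapped between the groups.

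Kainate receptor transcripts were dominated by Grik1, which had the highest level of all 45 receptor genes. Grik1 was at 91.7, 90.9, 134.8 and 109.7 TPM at ZT20 and at 89.2, 58.0 and 86.2 TPM at ZT8. The lowest ZT20 sample lay just above the highest ZT8 sample, and the log2 difference of 0.46 did not pass (standard error 0.20, limma adjusted p = 0.143). Without ZT8 replicate 2 the Grik1 difference was 0.26. Grik4 (ENSMUSG00000032017), a high-affinity subunit that works only in company with Grik1, Grik2 or Grik3 products, rose. It was at 15.7, 13.6, 17.8 and 16.1 TPM at ZT20 and at 9.07, 2.71 and 7.82 TPM at ZT8, with the lowest value in ZT8 replicate 2. Its log2 difference was 1.28 (standard error 0.33, limma adjusted p = 0.0350), and it was 0.83 without ZT8 replicate 2, where it also passed. The adjusted p was 0.0576 to 0.0997 when any 1 of the 4 ZT20 samples was left out. Grik4 accordingly held 11.2% to 14.0% of kainate transcripts at ZT20 and 4.31% to 8.60% at ZT8.

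The other kainate subunits were low. Grik2 was at 3.61, 3.51, 4.98 and 4.75 TPM at ZT20 and at 6.38, 2.04 and 2.98 TPM at ZT8, with overlapping groups and a log2 difference of 0.21 that did not pass. Grik5, the other high-affinity subunit, was below the filter, at 0.741 to 0.988 TPM at ZT20 and 0.0541 to 0.306 TPM at ZT8. It was the only one of the 22 genes below the filter whose groups did not overlap. Grik3 was at 0.336 to 0.603 TPM and 0.0193 to 0.405 TPM.

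Among NMDA receptor genes the obligatory subunit Grin1 was found almost without the glutamate-binding Grin2 subunits. Grin1 was at 35.4, 28.4, 39.3 and 43.4 TPM at ZT20 and at 25.2, 9.26 and 30.8 TPM at ZT8. ZT8 replicate 2 was the lowest, ZT8 replicate 3 lay within the ZT20 range, and the log2 difference of 0.86 did not pass (95% interval 0.038 to 1.69, limma adjusted p = 0.130). Without ZT8 replicate 2 it was 0.37. The highest value in any sample was 0.175 TPM for Grin2a, 0.0251 TPM for Grin2b, 0.143 TPM for Grin2c and 0.234 TPM for Grin2d. Because depth is unknown, how many reads these values rest on cannot be given. In GENCODE M21 the span of the antisense gene Grin1os overlaps that of Grin1. Whether exons overlap, so that part of the Grin1 signal could belong to Grin1os, was not examined. Grin3a, a glycine-binding subunit, was the second NMDA gene above the filter, at 2.99, 2.09, 3.98 and 4.32 TPM against 1.71, 0 and 1.03 TPM. Its groups did not overlap, and its adjusted p of 0.0543 missed the threshold (log2 difference 1.27, standard error 0.38). It passed without ZT8 replicate 1. The span of Ppp3r2 overlaps that of Grin3a on the same strand. Whether exons overlap, so that reads could be shared, was not examined.

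The Grin1 promoter is shown because it was the only one of the 37 receptor promoter windows, from the 30 receptor genes matched, with an E-box, the element through which Clock and Bmal1 act. It held 2 copies, in capitals below, starting 181 and 85 bases before the annotated start. An E-box was present in 6.02% of all 32851 windows.
Grin1, chr2:25319188-25319437, minus strand: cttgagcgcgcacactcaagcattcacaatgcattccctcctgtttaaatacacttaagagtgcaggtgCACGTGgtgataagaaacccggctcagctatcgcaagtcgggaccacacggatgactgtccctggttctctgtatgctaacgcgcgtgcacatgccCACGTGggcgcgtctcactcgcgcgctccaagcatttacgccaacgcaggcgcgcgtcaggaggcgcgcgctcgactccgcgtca
These are matches of letters only, and Grin1 was not called. The windows of the called genes Gabra2, Gria4 and Grik4, and the 3 windows of Gabrb2, held none of the 5 motifs. No motif was held by more than 2 of the 37 receptor windows, so this absence does not set the called genes apart.

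The delta receptors bind cerebellins and organise synapses. Grid1 was at 2.73, 5.41, 5.49 and 5.09 TPM at ZT20 and at 1.78, 1.81 and 6.64 TPM at ZT8, and ZT8 replicate 3 was the highest of all samples. Its log2 difference was 0.50 (95% interval −0.41 to 1.42), and it was 0.26, 0.27 and 0.99 without ZT8 replicates 1, 2 and 3.

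Metabotropic glutamate receptors were almost entirely of group III, which couple to inhibitory G proteins and act as presynaptic autoreceptors. Grm7 was at 32.5, 23.5, 34.6 and 35.0 TPM at ZT20 and at 23.1, 9.86 and 18.2 TPM at ZT8. The groups came close without overlapping, and the log2 difference of 0.90 missed the threshold (standard error 0.28, limma adjusted p = 0.0581). It was 1.15 without ZT8 replicate 1, where it passed, and 0.57 without ZT8 replicate 2, where it did not. Grm8 was at 11.7, 10.8, 11.9 and 12.1 TPM at ZT20 and at 4.86, 14.2 and 7.83 TPM at ZT8. The highest Grm8 value of all was thus in ZT8 replicate 2, the library in which 16 of the 23 genes were lowest. Its log2 difference was 0.45 (limma adjusted p = 0.307), and it was 0.81 without that library, where it passed, and 0.13 without ZT8 replicate 1 (adjusted p = 0.736). Grm4 was at 5.19, 3.91, 6.69 and 6.55 TPM against 4.25, 1.89 and 4.01 TPM, with a log2 difference of 0.61 that did not pass and was 0.34 without ZT8 replicate 2. Grm6, the group III receptor of retinal bipolar cells, did not exceed 0.0126 TPM. The group I receptor Grm5 stayed at or below 0.762 TPM, and the group II receptors Grm2 and Grm3 at or below 0.434 and 0.452 TPM.

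**Figure D3:**
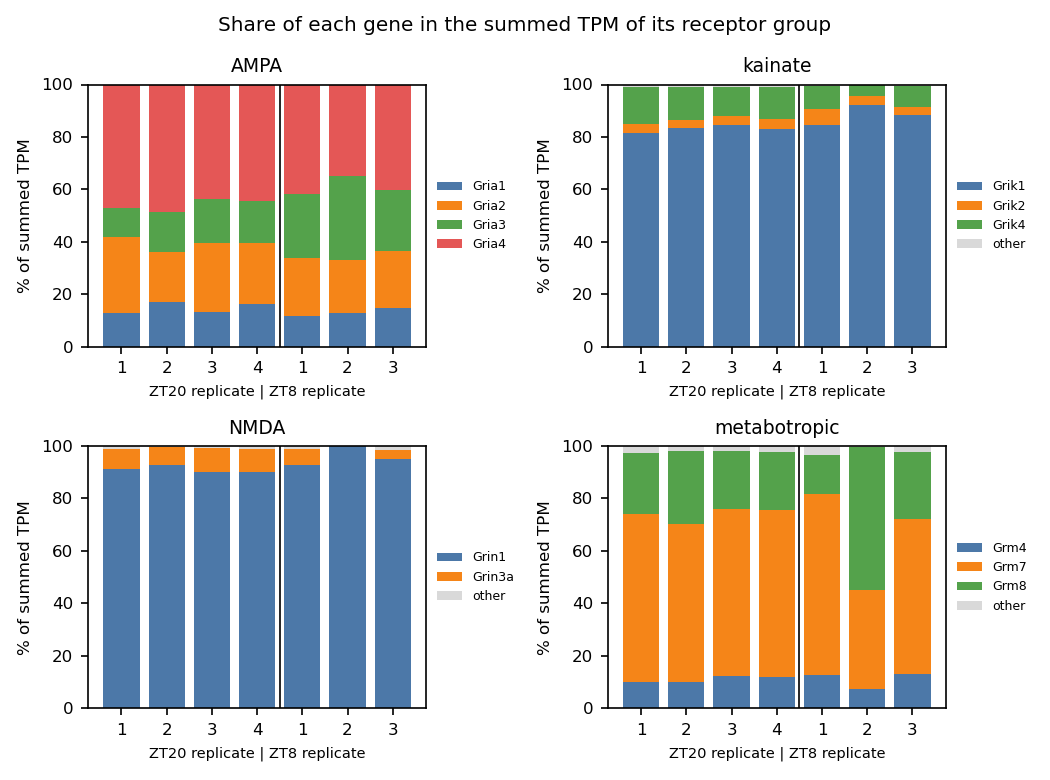
Stacked bars give each gene's percentage of the summed TPM of its receptor group, with 1 bar per sample and ZT20 replicates left of the line. Gria3 takes 11.0% to 17.0% of AMPA transcripts at ZT20 and 23.3% to 31.8% at ZT8, Grik1 takes 81.7% to 92.3% of kainate transcripts, and ZT8 replicate 2 differs from the other samples in the metabotropic group.

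In all, 22 of the 45 genes had a mean under 1 TPM, and their highest single value was 1.84 TPM (Gabrg3 in ZT8 replicate 2). The highest value stayed under 0.5 TPM for 16 of the 22. The rho subunits Gabrr1, Gabrr2 and Gabrr3, which form retinal GABA receptors, reached at most 0.236, 0.466 and 0.130 TPM. Gabrd, the extrasynaptic delta subunit, reached 0.841 TPM, and Gabre, Gabrp and Gabrq reached 0.293, 0.0552 and 0.0495 TPM. Of these 22 genes 15 were listed at 0 in ZT8 replicate 2, against 7 and 9 in the other ZT8 samples and 5 to 11 in the ZT20 samples.

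Summed over each class, GABA-A transcripts amounted to 169, 190, 214 and 224 TPM at ZT20 and 121, 123 and 124 TPM at ZT8. The ratio of the means was 1.63, with no overlap. Kainate transcripts summed to 109 to 159 TPM at ZT20 and 62.8 to 105.4 TPM at ZT8, and metabotropic transcripts to 39.1 to 54.9 TPM and 26.0 to 33.4 TPM. The AMPA, NMDA and delta sums overlapped between the groups.

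Genes that anchor, traffic or modify these receptors, or that make and clear their transmitters, were examined as a list of 61, of which 40 were tested. At ZT20, 9 were higher and 1 was lower (limma, adjusted p under 0.05), a share to be read against the 12.8% and 3.61% of all genes. The median log2 difference was 0.52 for the 40 and 0.23 for all tested genes. The median of the 40 was 0.33 under median-ratio scaling, 0.22 under quantile normalization, 0.16 after the length and GC correction and 0.24 with a covariate for neuronal minus other markers (the marker covariate), where all genes had 0.033, 0.0046, −0.0024 and 0.14. The number that passed was 3, 4 and 5 without ZT20 replicates 3, 4 and 1, and Slc17a6, Nlgn2 and Gabarapl2 passed whichever single sample was left out. On the GABA side 7 of 14 tested genes passed, 6 of them higher. After the length and GC correction, 0 of the 14 were higher and 1 was lower, where 3.8% and 5.15% of all genes were. With the marker covariate 2 were higher, beside 6.34% of all genes. 8 of the 14 had an unadjusted p under 0.05 in the first of these fits and 6 in the second (limma), beside 26.9% and 25.5% of all genes. Nlgn2, the adhesion protein of inhibitory synapses, was at 11.5 to 15.4 TPM at ZT20 and 5.32 to 5.69 TPM at ZT8, a log2 difference of 1.15 (adjusted p = 0.00673), which was 0.55 after the correction (adjusted p = 0.0549). Lhfpl4, which brings GABA-A receptors to synapses with Nlgn2, was at 87.2 to 142 TPM and 36.1 to 71.2 TPM (adjusted p = 0.0260, and 0.0581 after the correction). Slc12a2, the chloride importer, was at 10.9 to 13.9 TPM and 4.71 to 7.25 TPM, a log2 difference of 1.08 (adjusted p = 0.0122), which was 0.49 after the correction (adjusted p = 0.138). Nlgn2 and Slc12a2 were the 2 called with the marker covariate. The chloride exporter Slc12a5 was below the filter, at 0.303 to 0.985 TPM at ZT20 and up to 0.341 TPM at ZT8.

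The metabotropic GABA-B receptor genes passed as deposited and not after the length and GC correction. Gabbr1 was at 64.6 to 81.7 TPM at ZT20 and 35.9 to 53.1 TPM at ZT8 (log2 difference 0.72, limma adjusted p = 0.0211), and Gabbr2 at 15.9 to 22.8 TPM and 6.29 to 13.1 TPM (log2 difference 0.93, adjusted p = 0.0357). After the correction Gabbr1 differed by 0.17 (adjusted p = 0.40) and Gabbr2 by 0.31 (adjusted p = 0.299). Abat, which degrades GABA, had a log2 difference of 0.94 (adjusted p = 0.0379), and 0.48 after the correction (adjusted p = 0.14). Gphn, which encodes the scaffold gephyrin, did not pass (log2 difference 0.56, adjusted p = 0.108), although its groups did not overlap. Gabarapl2, a trafficking and autophagy protein, fell by 0.71 on the log2 scale, from 719 to 982 TPM at ZT8 to 455 to 531 TPM at ZT20 (adjusted p = 0.0131). It also passed after the correction, where it fell by 0.67 (adjusted p = 0.0246).

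On the glutamate side 3 of 26 tested genes passed, all higher, a share below the 12.8% of all tested genes. Slc17a6, the vesicular glutamate transporter of most sensory neurons, was at 128 to 148 TPM at ZT20 and 69.3 to 84.5 TPM at ZT8, a log2 difference of 0.78 (limma adjusted p = 0.00719), and it passed after the length and GC correction too (0.46, adjusted p = 0.0264). Dlg2, a scaffold of glutamate receptors, had a log2 difference of 1.14 (adjusted p = 0.0273), and 0.50 after the correction (adjusted p = 0.22). Slc17a7 (0.67), Neto1 (0.99) and Neto2 (0.61) did not pass, with adjusted p-values of 0.132, 0.0714 and 0.187. The Neto proteins are the auxiliary subunits of kainate receptors.

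Across the 14745 tested genes with a known length, the log2 difference and the length of the longest transcript had a Spearman rho of 0.41, a description across genes, which are not independent replicates. The longest transcript of the 23 receptor genes had a median of 5206 nt in GENCODE M21, against 3108 nt for all tested genes. Once the dependence of the values on length and GC content had been taken out within each sample, 2 of the 23 still passed, where 3.8% of all genes were higher, and Gabra2 was one of them (log2 difference 0.69, limma adjusted p = 0.0334). Gabrb2, Gria4 and Grik4 then differed by 0.80, 0.34 and 0.67, with adjusted p-values of 0.0634, 0.301 and 0.153. With the score of neuronal minus other markers as a covariate, 2 again passed, beside 6.34% of all genes, and Gabra2 (1.05) was one of them. Without ZT20 replicates 3 and 4, limma called 0 of the 23 receptor genes and 0 of 14687 genes in all (0%), where 5 and 2378 had an unadjusted p under 0.05. The log2 differences there were 1.11 for Gabra2, 0.95 for Gabrb2, 0.75 for Gria4 and 1.17 for Grik4.

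**Figure D4:**
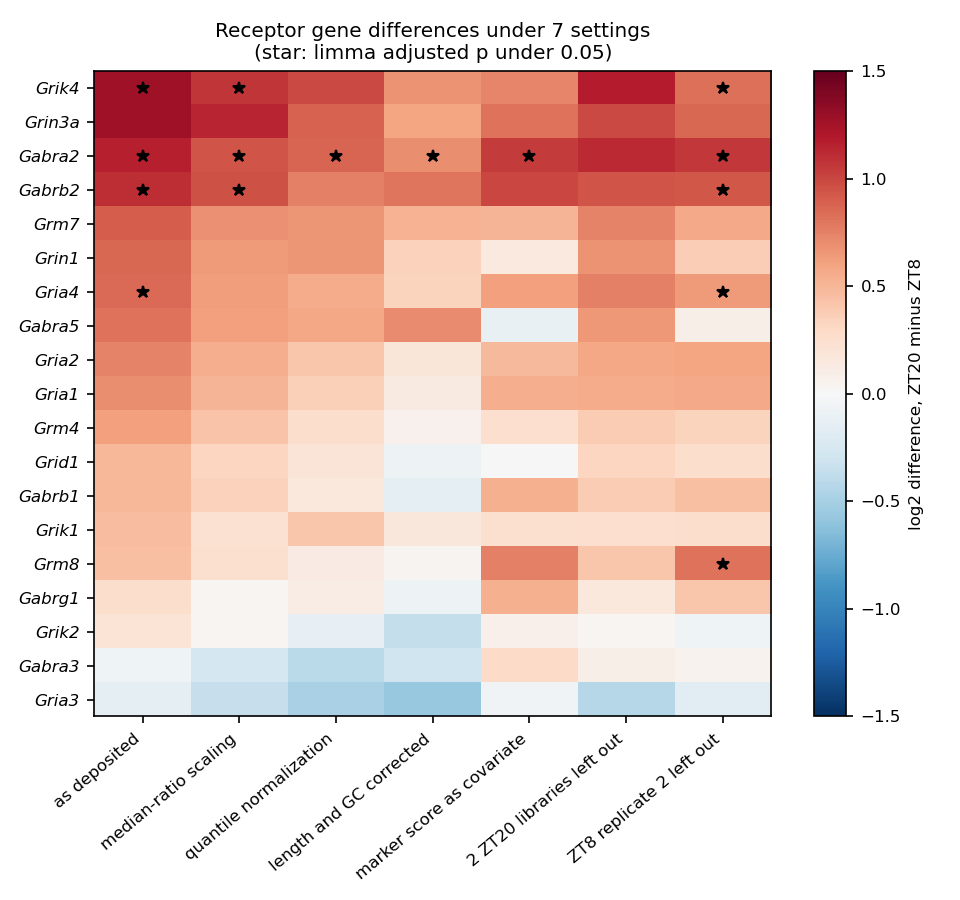
Colour gives the log2 difference, ZT20 minus ZT8, for each of 19 receptor genes (rows) under 7 settings (columns), and a star marks a limma adjusted p under 0.05. Gabra2 carries a star in 6 of the 7 columns, and the column with 2 ZT20 libraries left out carries 0 stars.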

How the data were processed

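The deposited table holds TPM values made by the authors, 1 column per sample for 7 samples, and every column sums to the same fixed total. Per the submitters' processing notes, FastQC 0.11.9, Trim Galore 0.6.6, Salmon 1.6.0, DESeq2 1.34.0 and the build GRCm39 were used; their roles and the annotation release are not given in the sources used here. TPM keeps no depth, so counting error is unknown. Total RNA went into a kit for low input, per the labels' protocols. 0 columns were left unused.

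Values were analysed as log2(TPM + 1) for 14800 genes whose mean reached 1 TPM, with limma 3.58.1 (lmFit, eBayes with trend, two-sided, R 4.3.3) over all 7 samples without covariates. Differences are ZT20 minus ZT8. On simulated data of 14800 genes, 66% of 200 genes changed by 1.5 on the log2 scale were called, and 0 were called with none changed. Length and GC content came from the longest GENCODE M21 transcript (14745 tested genes), and promoters from RefSeq by symbol. Receptor genes above the filter are given by sample, except some that are counted but not reported here. Of the partner genes, the 5 largest differences of each sign past the threshold per list are named, plus 9 fixed genes. The members and lists were chosen with earlier results of these data known. Alternatives were other pseudocounts, filters, scalings, corrections, covariates, weights, thresholds and omitted samples. Tables were handled with pandas 2.3.3 and figures drawn with matplotlib 3.10.9.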

Additional observations from a re-analysis of the deposited data

Results flagged for a closer look

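Among the 23 sets of 4 ZT20 values examined, 1 held a value far from the rest, where chance gives about 1.15. In ZT20 replicate 1, Grid1 had 2.73 TPM, and replicates 2 to 4 had 5.09 to 5.49 TPM, a gap of 0.856 of the range between lowest and highest. Without that sample the Grid1 log2 difference was 0.69, against 0.50 with it, and it ranged from 0.26 to 0.99 over all samples left out in turn.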

How the results depend on the processing

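The differences of Gabra2, Gabrb2, Gria4 and Grik4 stayed positive in every alternative in which they were tested (Gabrb2 was not tested at a minimum of 5 TPM), and no receptor gene was called lower in any. Of the receptor genes limma called 2, all higher, with no filter on low values, quantile normalization, the length correction, the length and GC correction, the marker score as covariate or the replicate block. Gabra2 was 1 of the 2 each time. In the same order, these settings called 3.69%, 12.4%, 7.39%, 8.95%, 7.26% and 7.93% of all genes. With no filter the 2 are of 44 tested, and otherwise of 23. With array weights, or an adjusted p under 0.10, 11 were called, beside 26.3% and 27.6% of all genes. The replicate block with the length and GC correction gave 0 (6 with an unadjusted p under 0.05, as had 22.3% of all genes), as did leaving out ZT20 replicates 3 and 4 together (5, beside 16.2% of all genes). Leaving out 1 sample gave 2 to 8 called and higher, and 0 lower.

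Of the partner genes the number called was 6 with no filter (5 higher, 1 lower), 8 with quantile normalization (5 higher, 3 lower), 10 with median-ratio scaling (6 higher, 4 lower), 3 with the length correction and 3 with the length and GC correction (1 higher, 2 lower in both). It was 6 with the replicate block (5 higher, 1 lower), 4 with the marker score as covariate (4 higher, 0 lower), 13 with array weights (11 higher, 2 lower) and 17 at an adjusted p under 0.10 (14 higher, 3 lower). It was 0 (0 higher, 0 lower) with the replicate block and the length and GC correction, where 14 of the 40 had an unadjusted p under 0.05, and without ZT20 replicates 3 and 4 (10), to be read against the same 22.3% and 16.2% of all genes. Leaving out 1 sample gave 3 to 14 called, 2 to 12 higher and 1 to 2 lower. Over all genes, 1899 were higher and 534 lower as deposited, 1128 and 1160 with median-ratio scaling, and 560 and 759 with the length and GC correction. The cause of these changes was not tested.

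Some uncalled genes changed sign. With the length and GC correction, the length correction, and the replicate block with length and GC correction, in that order, the log2 difference was −0.071, −0.21 and −0.17 for Gabrg1, −0.13, −0.22 and −0.25 for Gabrb1, −0.075, −0.060 and −0.081 for Grid1, and −0.36, −0.46 and −0.41 for Grik2. Grik2 was at −0.12 with quantile normalization, Grm8 at −0.021 with the length correction and Gabra5 at −0.11 with the marker score. Gabra3 was at 0.047 with the replicate block, 0.29 with the marker score and 0.090 without ZT20 replicates 3 and 4. Leaving out 1 sample gave −0.37 to 0.12 for Gabra3 and −0.067 to 0.57 for Grik2.

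Samples with the same replicate number correlated at −0.014, 0.15 and 0.083 in their deviations from the group means, so the numbers were not taken to pair them. Depth is unknown from TPM, which limits what can be said of the 22 genes below the filter.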

Other observations

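Genes that make or load GABA were at low levels. Gad1 was at 0.504 to 1.24 TPM at ZT20 and 0 to 0.555 TPM at ZT8. Gad2 did not exceed 0.23 TPM, and the vesicular transporter Slc32a1 was above 0 in 1 sample. Markers of sensory neuron types were summed as a further description. The 4 nonpeptidergic nociceptor markers summed to 428 to 542 TPM at ZT20 and 287 to 373 TPM at ZT8, without overlap. The 4 peptidergic markers summed to 4303 to 6361 TPM and 4444 to 5409 TPM, and the 7 large-diameter markers to 1347 to 1606 TPM and 756 to 1734 TPM, with overlap in both.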
